A study of Homo sapiens with 14 samples.

Results

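Collagens are the most abundant structural proteins outside cells, and the collagen genes described here are all those whose symbol consists of COL, a number, the letter A and a number. The rule took 44 of the 57445 gene entries in the count tables of human pluripotent stem cells (hPSC) and of cultures at day 11 of differentiation. It left out 9 entries with a near name (antisense transcripts, pseudogenes and COL4A3BP, a ceramide transfer protein gene). By class, 11 members code for fibrillar chains, 6 for type IV, 5 for type VI, 3 for hexagonal networks, 10 for FACITs, 4 for transmembrane collagens and 2 for multiplexins. The other 3 are COL7A1, COL26A1 and COL28A1.

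Each collagen molecule is a triple helix of 3 chains, which can be copies of 1 gene product or the products of different genes. Fibrillar collagens form the rope-like fibrils of connective tissue, and FACITs bind to the surface of those fibrils. Type IV collagen forms the sheet of the basement membrane on which epithelia, including the neuroepithelium, rest. Type VI collagen forms beaded filaments close to basement membranes. Transmembrane collagens sit in the cell membrane with a collagenous part outside, and multiplexins are basement membrane collagens that carry sugar chains.

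The study made midbrain dopamine neurons from the human embryonic stem cell line H9 (WA-09) and read the RNA of 14 libraries, 2 in each of 7 groups. The groups are undifferentiated hPSC grown on vitronectin in Essential 8 medium; day 11 progenitors exposed from day 4 to 0.7, 3, 5 or 7.5 µM CHIR99021; and cultures taken at day 16 or at day 30 after exposure to 7.5 µM. CHIR99021 inhibits the kinase GSK3 and so activates WNT signalling. Every differentiated culture began on a Geltrax coat with SHH C25II, LDN, SB431542, 0.7 µM CHIR99021 and Y-27632, lost SHH, LDN and SB431542 at day 7, and from day 10 was in a medium with BDNF, ascorbic acid, GDNF, TGFβ3, dibutyryl cAMP and 3 µM CHIR99021. LDN and SB431542 block BMP and TGFβ-type receptors, and ascorbic acid is a cofactor of the enzymes that hydroxylate collagen chains. The day 16 and day 30 cultures were replated at day 11 (those of day 30 again at day 16) on polyornithine, laminin and fibronectin, with DAPT, an inhibitor of Notch cleavage, in the medium. The series' design text gives day 20 where the sample labels give day 16, and ends the exposure at day 9 where the protocol has day 10; the labels and the protocol are followed here. Coat, medium and stage differ together between hPSC and day 11 and cannot be told apart. The labels name 1 cell line and do not say whether replicates were separate cultures.

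Gene counts came to 20.52 to 44.76 M per library in hPSC and at day 11 and to 5.41 to 6.34 M in the day 16 and day 30 libraries. Levels are in CPM (a gene's counts per 1 M gene counts), and 2 values in a row are replicates 1 and 2. The replicates stood apart at day 11 before any dose was considered: same-numbered libraries deviated together from their group means (correlation 0.66 to 0.87 over the 6 pairs of dose groups). Reads that fell in no gene made up 6.88% to 10.05% of all counts in replicate 1 and 13.04% to 16.42% in replicate 2. Dose effects are therefore given from a fit on dose alone and from one that adds the replicate number (the block). Most but not all defining markers at day 11 moved as the labels say. The pluripotency gene NANOG was at 0 to 0.0590 CPM (15.2 and 27.0 CPM in hPSC). The midbrain floor plate gene LMX1A was at 28.2 to 119 CPM (0.0310 and 0.200 CPM in hPSC). POU5F1, TDGF1 and DPPA4 fell too, but the pluripotency gene LIN28A stayed at 1107 to 1781 CPM (1348 and 1847 CPM in hPSC). NES, OTX2, FOXA2 and EN1 were above hPSC in each day 11 library. The progenitor gene SOX2, at 132 to 443 CPM (299 and 228 CPM in hPSC), was not. PAX6 was at 11.3 and 8.42 CPM at 0.7 µM, against at most 0.124 CPM in hPSC. In 5 µM replicate 1 (0.193 CPM) and 7.5 µM replicate 1 (0.208 CPM) it was barely above hPSC, on few counts. In the day 16 and day 30 tables SOX2 was at 0 and antisense-type entries took 33.2% to 40.3% of the counts, against 0.259% to 0.355% in the other tables, so their collagen values come last, with this caution.

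Collagen transcripts made up a small and, at day 11, larger part of all counts. The 44 members summed to 1442 and 1111 CPM in hPSC, 2551 and 2686 CPM at 0.7 µM, 1823 and 2682 CPM at 3 µM, 1669.8 and 3268 CPM at 5 µM and 2605 and 3102 CPM at 7.5 µM. All 8 day 11 libraries were above both hPSC libraries, and the doses overlapped. A mean of at least 10 CPM in some group was reached by 26 members, 12 others reached 1 to 10 CPM, and 6 stayed under 1 CPM in every group (COL6A5, COL6A6, COL10A1, COL15A1, COL17A1 and COL19A1). COL10A1, the collagen of hypertrophic cartilage, had no count in any hPSC or day 11 library.

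**Figure D1:**
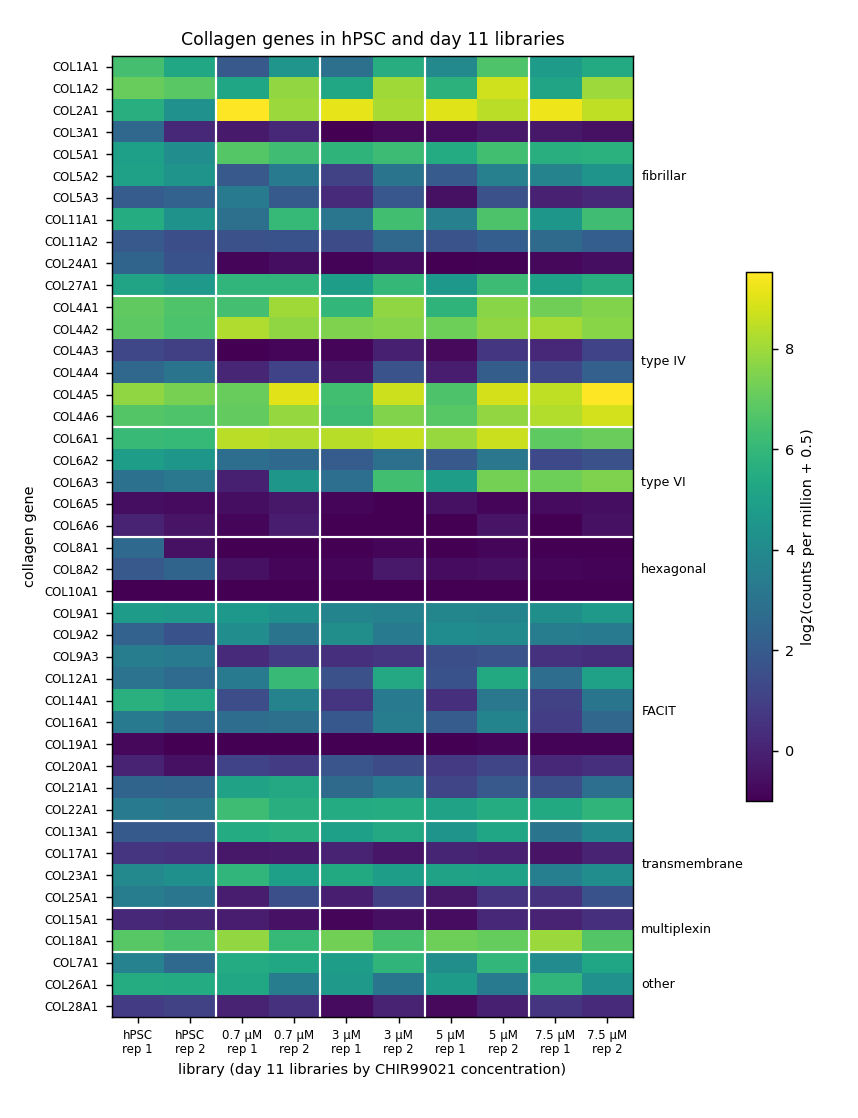
Heat map of log2(CPM + 0.5) for the 44 collagen genes (rows, by class) in the 10 hPSC and day 11 libraries (columns). COL2A1, COL4A5 and COL6A1 are among the brightest rows at day 11, and COL10A1 is at 0 throughout; replicate 1 and replicate 2 columns differ in many rows.

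Per kilobase of annotated exon, the scale on which genes can be compared, COL2A1 was at 91.9 and 55.4 CPM per kb at 7.5 µM, against 109 and 36.3 at 0.7 µM. It was the highest member in replicate 1 at both doses, while in replicate 2 COL4A5 was above it at 7.5 µM and COL6A1 and COL4A5 were above it at 0.7 µM. In both hPSC libraries COL4A5 was the highest, with 18.6 and 13.9 CPM per kb, and COL2A1 was at 7.28 and 2.97. COL6A1 was at 22.3 and 26.2 CPM per kb at 7.5 µM, against 65.3 and 57.6 at 0.7 µM. In both 7.5 µM libraries the 3 highest members were the cartilage-type fibrillar chain COL2A1 and the X-linked type IV pair, COL4A5 with 30.8 and 62.0 and COL4A6 with 34.5 and 47.5 CPM per kb.

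The highest dose was compared with the lowest across 18709 genes by edgeR's quasi-likelihood test, adjusted after Benjamini and Hochberg, and 37 members were among them. Without the block 0 members passed (background 0%), while 8 had an unadjusted p under 0.05 and DESeq2 called 5. With the block 12 of the 37 passed, 5 higher and 7 lower at 7.5 µM, where 10.5% of all genes tested passed (5.64% higher and 4.87% lower). The median log2 fold change of the members was −0.15 and that of all genes 0.07. Higher at 7.5 µM were COL6A3, COL4A3, COL1A1, COL5A2 and COL4A6, and lower were COL5A3, COL21A1, COL13A1, COL23A1, COL6A2, COL6A1 and COL5A1. Calls of COL6A3, COL21A1 and COL13A1 stood whichever 1 of the 4 libraries was left out. Without 0.7 µM replicate 1 the blocked calls of COL1A1, COL4A6, COL5A1, COL5A2, COL5A3, COL6A1, COL6A2 and COL23A1 were lost. Without 0.7 µM replicate 2 those of COL1A1, COL4A3, COL4A6 and COL5A2 were lost, without 7.5 µM replicate 1 those of COL4A6, COL5A2 and COL5A3, and without 7.5 µM replicate 2 that of COL5A3. The number of members called was 4 to 18 over these leave-outs.

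**Figure D2:**
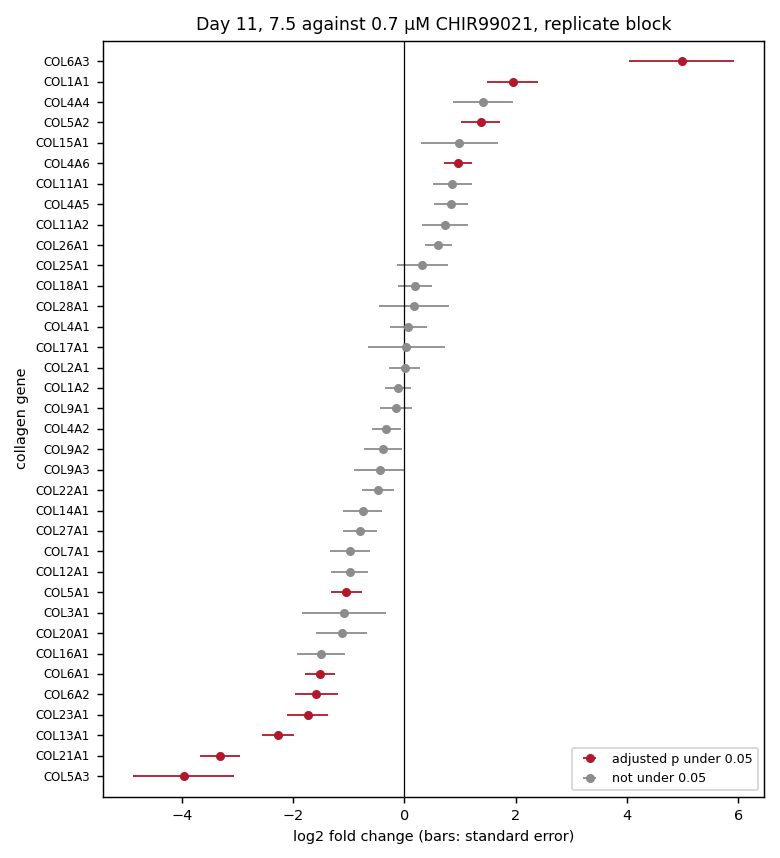
Log2 fold change, 7.5 over 0.7 µM at day 11 in the fit with the replicate block (horizontal axis; bars are standard errors), for the tested collagen genes other than COL4A3, with 3 counts at 0.7 µM. Red genes passed the adjusted threshold of 0.05; COL6A3 at 4.99 and COL5A3 at −3.97 are the extremes.

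Fewer members passed at the middle doses. At 5 µM against 0.7 µM, 1 member, COL21A1, passed with the block (background 1.13%; 0.706% higher, 0.422% lower) and 0 without it (background 0%; 3 members under an unadjusted p of 0.05, 1 by DESeq2). At 3 µM against 0.7 µM, 0 members passed in either fit (backgrounds 0% without the block and 0.0214% with it, 0.016% higher and 0.00535% lower), with 2 under an unadjusted p of 0.05 without the block and 8 with it; DESeq2 called 0 without the block and 1 with it. The slope per doubling of concentration over all 8 day 11 libraries was called for COL21A1 and COL4A3 with the block (background 1.19%; 0.722% higher, 0.465% lower) and for 0 members without it (background 0.134%, 0.0802% higher and 0.0535% lower; 6 under an unadjusted p of 0.05, 3 by DESeq2). COL21A1 lost its slope call without 0.7 µM replicate 1, and COL4A3 lost its slope call without either 0.7 µM library, without 5 µM replicate 2 or without 7.5 µM replicate 2. Of the 26 members at 10 CPM or more, 8 were higher at 7.5 than at 0.7 µM in both replicates, 11 were lower in both and 7 went opposite ways. In the same order the counts were 6, 11 and 9 at 5 µM and 5, 14 and 7 at 3 µM, both against 0.7 µM. No such count was made over all genes, so these numbers do not set the members apart from other genes. These comparisons share the 0.7 µM libraries.

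Type VI chains passed for dose in both directions. COL6A1 and COL6A2 are adjacent genes whose products combine with one more chain, in most tissues that of COL6A3. COL6A3 (ENSG00000163359.11, on chromosome 2) had 7.03 and 8.90 CPM in hPSC, 0.439 and 23.2 CPM at 0.7 µM, 6.64 and 79.8 CPM at 3 µM, 28.3 and 160.1 CPM at 5 µM and 145 and 178 CPM at 7.5 µM. Both 7.5 µM libraries were above both 0.7 µM libraries, and within each replicate the level was higher at every step of the dose; 0.7 µM replicate 1 was far below its partner. The log2 fold change at 7.5 against 0.7 µM was 4.99 ± 0.94 (SE) with the block (edgeR, adjusted p = 0.0104) and 3.61 ± 1.77 without it (edgeR, adjusted p = 0.658). Leaving out replicate 1 or replicate 2 of 7.5 µM gave 3.13 and 6.11 with the block, and leaving out either of 0.7 µM gave 3.79 and 7.61.

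The other type VI chains went the opposite way. COL6A1 had 70.0 and 65.2 CPM in hPSC, 349 and 308 CPM at 0.7 µM, 339.6 and 384 CPM at 3 µM, 235 and 413 CPM at 5 µM and 119 and 140.2 CPM at 7.5 µM. Its 2 libraries at 7.5 µM were the lowest of day 11 and still above both hPSC libraries. COL6A2 had 29.8 and 23.5 CPM in hPSC, 6.38 and 5.52 CPM at 0.7 µM, 3.71 and 6.97 CPM at 3 µM, 3.37 and 8.50 CPM at 5 µM and 1.99 and 2.59 CPM at 7.5 µM. Here too the 7.5 µM libraries were the lowest, and hPSC was the highest group. With the block COL6A1 fell by 1.52 and COL6A2 by 1.58 on the log2 scale at 7.5 against 0.7 µM (edgeR, adjusted p = 0.00796 for COL6A1 and 0.0287 for COL6A2). COL6A5 and COL6A6, alternatives to COL6A3 in this role, stayed between 0 and 0.495 CPM.

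**Figure D3:**
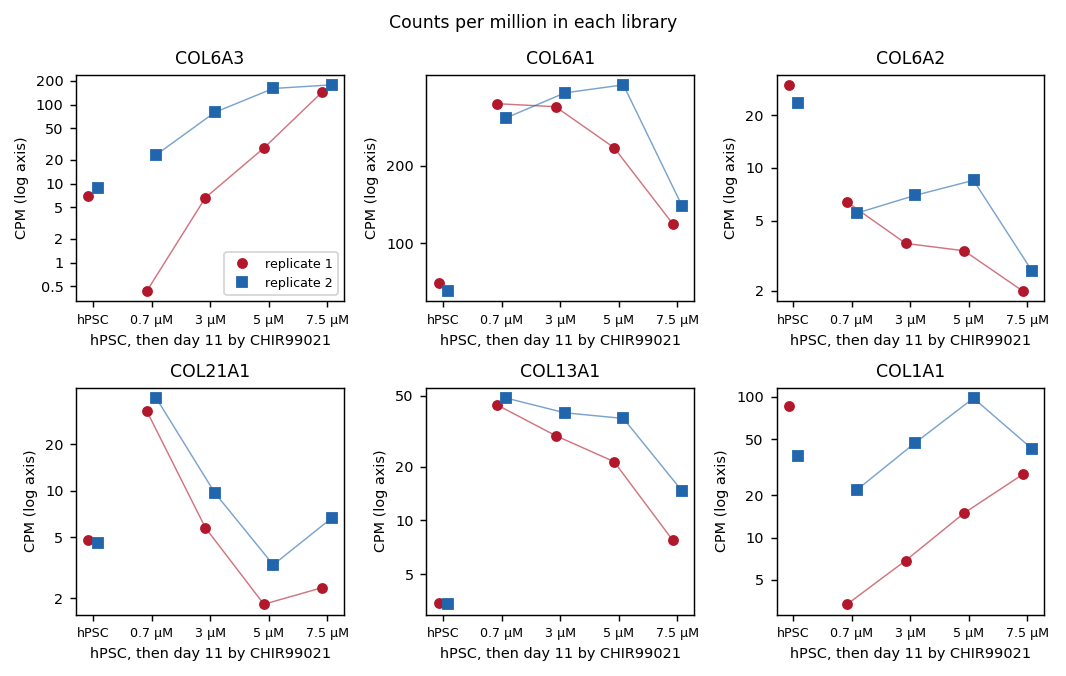
CPM (log axis) of 6 members in hPSC and at the 4 day 11 doses; circles are replicate 1 and squares replicate 2, joined over the doses. COL6A3 is higher at each step of the dose in both replicates, and COL13A1 and COL21A1 at 7.5 µM are below 0.7 µM in both.

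Per length, the ratio of COL6A3 to COL6A1 was 0.0273 and 0.0371 in hPSC, 0.000300 and 0.0205 at 0.7 µM, 0.00530 and 0.0565 at 3 µM, 0.0327 and 0.105 at 5 µM and 0.331 and 0.346 at 7.5 µM. Both replicates had their highest ratio at 7.5 µM. The ratio of COL6A1 to COL6A2 was 60.5 and 54.6 at 7.5 µM and 55.1 and 56.2 at 0.7 µM, against 2.37 and 2.79 in hPSC. The summed type VI level overlapped between doses, at 107 and 98.0 CPM in hPSC, 356 and 337 CPM at 0.7 µM, 350.1 and 471 CPM at 3 µM, 267 and 582 CPM at 5 µM and 267 and 321 CPM at 7.5 µM.

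The 250 bases before the start of COL6A3 are shown because its fitted fold change was the largest in the blocked fit over all libraries (RefSeq, GRCh38.p14, chr2:237414165-237414414, minus strand, 5′ to 3′). Below it stands the same stretch of COL13A1, a gene that fell (chr10:69801656-69801905, plus strand), with a match to the TCF/LEF-type motif CTTTGAA, here on its reverse strand, in capitals. COL5A3 and COL21A1 fell further in the blocked fit, and neither held a match to this motif.
COL6A3: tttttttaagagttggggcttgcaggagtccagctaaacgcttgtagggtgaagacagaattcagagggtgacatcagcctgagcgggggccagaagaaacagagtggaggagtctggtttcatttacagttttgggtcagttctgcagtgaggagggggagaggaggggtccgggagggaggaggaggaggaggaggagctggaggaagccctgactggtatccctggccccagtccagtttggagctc
COL13A1: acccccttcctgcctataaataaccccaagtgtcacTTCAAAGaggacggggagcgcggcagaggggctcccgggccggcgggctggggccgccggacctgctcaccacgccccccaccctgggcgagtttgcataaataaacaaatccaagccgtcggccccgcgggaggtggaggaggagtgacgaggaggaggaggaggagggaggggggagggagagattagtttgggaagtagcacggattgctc
Motifs were searched on both strands in windows of the 250 bases before each start, and 32 of the members had 44 such windows. CTTTGAA lay in 2 of the 44 member windows (COL13A1, and COL26A1, which did not pass for dose) and in 3.8% of all 35116 windows. CTTTGAT, the other TCF/LEF-type motif searched, lay in 0 member windows and in 2.26% of all windows. A part of these motifs in the dose results was not tested. The GC box GGGCGG lay in 24 member windows (42.64% of all windows) and CCAAT in 12 (32.01% of all windows). None of these 4 motifs lies in the printed COL6A3 stretch.

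**Figure D4:**
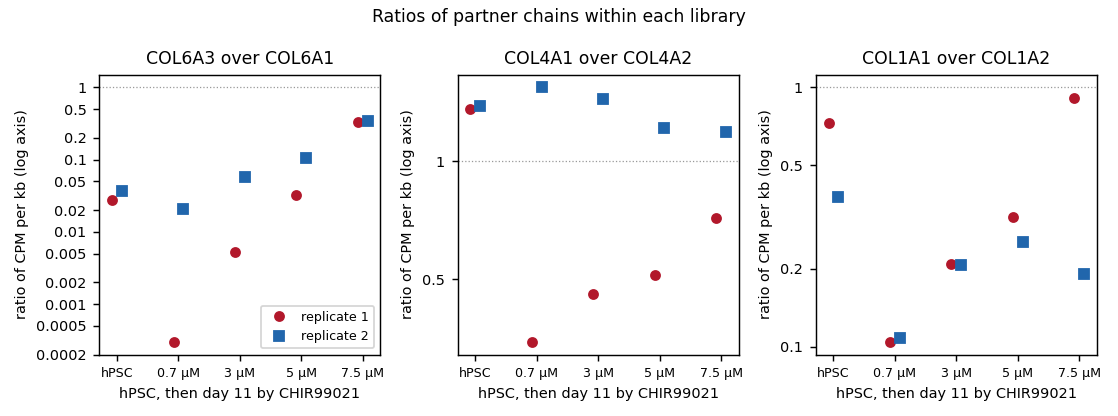
Ratio of CPM per kb (log axis; dotted line at 1) for 3 pairs of chains in hPSC and at the day 11 doses; circles are replicate 1 and squares replicate 2. COL6A3 over COL6A1 is highest at 7.5 µM in both replicates, and COL4A1 over COL4A2 is under 1 in day 11 replicate 1 libraries and above 1 in replicate 2.

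Type IV was the largest class in hPSC and at 7.5 µM. Its sum was 572 and 464 CPM in hPSC, 657 and 1232 CPM at 0.7 µM, 397 and 1022 CPM at 3 µM, 409 and 1113 CPM at 5 µM and 1109.8 and 1567 CPM at 7.5 µM. The class made up 42.6% and 50.5% of collagen counts at 7.5 µM, against 25.8% and 45.9% at 0.7 µM. In each replicate the 7.5 µM library had the highest sum, and replicate 2 was above replicate 1 at every dose.

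The 6 type IV genes lie in 3 head-to-head pairs that are read in opposite directions from a shared start region, and each pair's shared region is shown because its members are set side by side here. In the RefSeq windows (GRCh38.p14) the starts of COL4A1 and COL4A2 are 126 bases apart (chr13:110307158-110307283). Those of COL4A4 and COL4A3 are 418 apart with 82 bases in both windows (chr2:227164374-227164455), and those of COL4A6 and COL4A5 are 379 apart with 121 in both (chrX:108439588-108439708). COL4A6 has another start in these windows, 1415 bases from that of COL4A5 and with 0 bases in both. The plus strand is printed, with matches to GGGCGG and, on either strand, to CCAAT in capitals.
COL4A1/COL4A2: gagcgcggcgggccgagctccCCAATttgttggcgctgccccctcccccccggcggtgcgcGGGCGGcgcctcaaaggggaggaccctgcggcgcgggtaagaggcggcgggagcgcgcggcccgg
COL4A4/COL4A3: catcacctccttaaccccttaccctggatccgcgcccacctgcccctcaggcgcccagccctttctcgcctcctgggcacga
COL4A6/COL4A5: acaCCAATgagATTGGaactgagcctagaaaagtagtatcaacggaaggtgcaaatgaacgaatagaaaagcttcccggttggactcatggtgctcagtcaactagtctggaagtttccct
The COL4A1/COL4A2 stretch holds 1 CCAAT and 1 GGGCGG, the COL4A6/COL4A5 stretch holds 2 CCAAT matches, and the COL4A4/COL4A3 stretch holds neither.

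COL4A1 and COL4A2 make the common form found in nearly all basement membranes. COL4A1 had 122 and 98.6 CPM in hPSC, 82.3 and 257 CPM at 0.7 µM, 62.6 and 217 CPM at 3 µM, 57.2 and 199.9 CPM at 5 µM and 149 and 183 CPM at 7.5 µM. COL4A2 had 118 and 93.2 CPM in hPSC, 312 and 218 CPM at 0.7 µM, 179 and 197 CPM at 3 µM, 146 and 216 CPM at 5 µM and 273 and 202 CPM at 7.5 µM. Neither gene passed for dose with the block (log2 fold changes 0.07 ± 0.34 and −0.33 ± 0.26, SE). COL4A1 was lower in replicate 1 at every dose, while COL4A2 was higher there at 0.7 and 7.5 µM. Their ratio per length was 1.36 and 1.39 in hPSC, 0.346 and 1.54 at 0.7 µM, 0.457 and 1.44 at 3 µM, 0.513 and 1.21 at 5 µM and 0.715 and 1.19 at 7.5 µM, under 1 in each day 11 replicate 1 library and above 1 in all others.

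COL4A5 and COL4A6 share the X chromosome and make chains of specialised basement membranes. COL4A5 had 220.3 and 165 CPM in hPSC, 135 and 523 CPM at 0.7 µM, 80.5 and 424 CPM at 3 µM, 96.1 and 466 CPM at 5 µM and 365 and 736 CPM at 7.5 µM. COL4A6 had 105 and 98.0 CPM in hPSC, 127 and 232 CPM at 0.7 µM, 74.1 and 182 CPM at 3 µM, 109 and 226 CPM at 5 µM and 321 and 441 CPM at 7.5 µM. Both had their highest library of each replicate at 7.5 µM, and for COL4A6 both 7.5 µM libraries were above all other libraries. COL4A6 passed with the block at 7.5 against 0.7 µM (log2 fold change 0.97 ± 0.24, SE; edgeR, adjusted p = 0.0330). COL4A5, at 0.84 ± 0.30, did not (edgeR, adjusted p = 0.105).

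COL4A3 and COL4A4 make the form of the glomerular and cochlear basement membrane with COL4A5, and were rare here. COL4A3 had 1.86 and 1.52 CPM in hPSC, 0 and 0.0670 CPM at 0.7 µM, 0.0750 and 0.458 CPM at 3 µM, 0.0963 and 1.08 CPM at 5 µM and 0.653 and 1.68 CPM at 7.5 µM. Its 0.7 µM libraries held 3 counts in all and its 7.5 µM libraries 76, a ratio of 25.2 after scaling (95% interval for counting error 8.29 to 125; edgeR with the block, adjusted p = 0.00794). COL4A4 had 5.39 and 7.74 CPM in hPSC, 0.585 and 1.70 CPM at 0.7 µM, 0.263 and 2.75 CPM at 3 µM, 0.385 and 3.74 CPM at 5 µM and 1.87 and 4.21 CPM at 7.5 µM. Its 7.5 µM libraries were above both 0.7 µM libraries, and it did not pass with the block (log2 fold change 1.41 ± 0.54, SE; edgeR, adjusted p = 0.119).

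Among fibrillar genes, COL1A1 and COL5A2 were higher and COL5A1 and COL5A3 lower at 7.5 against 0.7 µM with the block. COL1A1 and COL1A2 code for the chains of type I collagen, normally joined as 2 copies of the first and 1 of the second. COL1A1 had 85.7 and 37.8 CPM in hPSC, 3.36 and 21.7 CPM at 0.7 µM, 6.87 and 46.9 CPM at 3 µM, 14.9 and 97.6 CPM at 5 µM and 28.0 and 42.6 CPM at 7.5 µM. COL1A2 had 133 and 114 CPM in hPSC, 36.6 and 228 CPM at 0.7 µM, 37.6 and 259 CPM at 3 µM, 53.9 and 437 CPM at 5 µM and 34.9 and 255 CPM at 7.5 µM. Replicate 2 was above replicate 1 for both genes at every dose. COL1A1 at 7.5 µM was above 0.7 µM in both replicates and passed with the block (log2 fold change 1.94 ± 0.46, SE; edgeR, adjusted p = 0.0264), while COL1A2 did not pass (−0.12 ± 0.23; edgeR, adjusted p = 0.772). The COL1A1 value was 0.81 without 7.5 µM replicate 1 and 2.73 without 7.5 µM replicate 2. Per length, the COL1A1 to COL1A2 ratio was 0.731 and 0.378 in hPSC, 0.104 and 0.108 at 0.7 µM, 0.208 and 0.206 at 3 µM, 0.315 and 0.254 at 5 µM and 0.912 and 0.190 at 7.5 µM.

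COL2A1, the chain of cartilage collagen, is also made by early neuroepithelium and notochord. It had 48.5 and 19.8 CPM in hPSC, 727 and 242 CPM at 0.7 µM, 560.0 and 280.4 CPM at 3 µM, 514 and 350.5 CPM at 5 µM and 612 and 369 CPM at 7.5 µM. All day 11 libraries were above hPSC, the doses overlapped, and replicate 1 was above replicate 2 at each dose. COL11A1, a chain of the minor fibrillar collagen that is built into type II fibrils, had 45.0 and 20.8 CPM in hPSC, 6.92 and 65.4 CPM at 0.7 µM, 8.18 and 81.4 CPM at 3 µM, 11.6 and 96.2 CPM at 5 µM and 23.4 and 78.0 CPM at 7.5 µM. Unlike COL2A1, it was higher in replicate 2 at each dose. COL11A2 lay between 2.18 and 5.64 CPM in these 10 libraries, and neither type XI gene passed for dose.

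Type V chains start the assembly of type I fibrils and set their width. COL5A1 had 30.5 and 17.6 CPM in hPSC, 108 and 77.1 CPM at 0.7 µM, 57.5 and 74.3 CPM at 3 µM, 43.5 and 79.6 CPM at 5 µM and 48.7 and 52.7 CPM at 7.5 µM. COL5A2 had 31.8 and 21.2 CPM in hPSC, 3.36 and 9.76 CPM at 0.7 µM, 1.58 and 7.78 CPM at 3 µM, 3.56 and 11.6 CPM at 5 µM and 12.5 and 21.6 CPM at 7.5 µM. COL5A3 had 3.65 and 4.39 CPM in hPSC, 9.94 and 3.40 CPM at 0.7 µM, 0.713 and 3.13 CPM at 3 µM, 0.193 and 2.57 CPM at 5 µM and 0.475 and 0.624 CPM at 7.5 µM. COL5A1 and COL5A3 at 7.5 µM were below both 0.7 µM libraries and COL5A2 was above both. With the block the log2 fold changes were −1.04 ± 0.28 for COL5A1, 1.37 ± 0.35 for COL5A2 and −3.97 ± 0.91 for COL5A3 (SE; edgeR, adjusted p = 0.0412, 0.0336 and 0.0232). Without 0.7 µM replicate 1 the COL5A3 value was −1.93 (−5.22 without 0.7 µM replicate 2) and the COL5A1 value −0.67, and without 7.5 µM replicate 1 the COL5A2 value was 0.87. The COL5A1 to COL5A2 ratio per length was 2.60 and 1.62 at 7.5 µM, against 21.4 and 5.26 at 0.7 µM.

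COL27A1, a fibrillar chain of developing cartilage, had 35.4 and 25.4 CPM in hPSC, 59.6 and 59.6 CPM at 0.7 µM, 28.9 and 63.1 CPM at 3 µM, 24.1 and 73.2 CPM at 5 µM and 31.8 and 48.9 CPM at 7.5 µM and did not pass for dose. COL3A1, the partner of type I in soft tissues, was at 0 to 0.626 CPM at day 11, against 5.26 and 0.638 CPM in hPSC. COL24A1 was at 0 to 0.156 CPM at day 11, against 4.71 and 2.67 CPM in hPSC.

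Among the FACITs, 1 gene passed for dose. COL21A1, a FACIT described in vessel walls, had 4.77 and 4.55 CPM in hPSC, 32.8 and 39.9 CPM at 0.7 µM, 5.74 and 9.68 CPM at 3 µM, 1.83 and 3.30 CPM at 5 µM and 2.35 and 6.64 CPM at 7.5 µM. Both 0.7 µM libraries were above all other hPSC and day 11 libraries, and each replicate had its lowest day 11 value at 5 µM. The log2 fold change with the block was −3.31 ± 0.36 at 7.5 µM (edgeR, adjusted p = 0.000874) and −3.82 ± 0.38 at 5 µM (edgeR, adjusted p = 0.00261), both against 0.7 µM. Its slope was −1.06 ± 0.13 per doubling (edgeR with the block, adjusted p = 0.00764). Without the block the 7.5 against 0.7 µM value was −3.20 ± 0.58 (edgeR, adjusted p = 0.236), and with the block but without 7.5 µM replicate 2 it was −3.95.

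COL22A1, a collagen of the muscle-tendon junction, had 9.29 and 8.50 CPM in hPSC, 75.0 and 49.7 CPM at 0.7 µM, 44.6 and 45.4 CPM at 3 µM, 32.9 and 45.8 CPM at 5 µM and 41.7 and 58.3 CPM at 7.5 µM. It was higher in every day 11 library than in hPSC, and the doses overlapped. COL12A1 and COL14A1 code for FACITs of tendon and skin fibrils. COL12A1 had 7.56 and 5.99 CPM in hPSC, 9.31 and 69.8 CPM at 0.7 µM, 2.59 and 39.9 CPM at 3 µM, 2.65 and 41.3 CPM at 5 µM and 6.21 and 32.4 CPM at 7.5 µM. COL14A1 had 51.3 and 40.8 CPM in hPSC, 2.29 and 12.7 CPM at 0.7 µM, 1.01 and 9.76 CPM at 3 µM, 0.819 and 8.76 CPM at 5 µM and 1.63 and 7.92 CPM at 7.5 µM. Both were several times higher in replicate 2 than in replicate 1 at each dose, and neither passed for dose.

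The type IX chains cover type II fibrils in cartilage and the eye. COL9A1 had 27.6 and 24.7 CPM in hPSC, 23.6 and 19.2 CPM at 0.7 µM, 12.9 and 11.9 CPM at 3 µM, 13.7 and 12.9 CPM at 5 µM and 18.4 and 24.5 CPM at 7.5 µM. COL9A2 had 4.52 and 2.67 CPM in hPSC, 17.1 and 7.89 CPM at 0.7 µM, 17.8 and 9.51 CPM at 3 µM, 16.7 and 15.4 CPM at 5 µM and 10.2 and 9.63 CPM at 7.5 µM. COL9A3 had 10.6 and 9.66 CPM in hPSC, 0.731 and 1.34 CPM at 0.7 µM, 0.826 and 1.06 CPM at 3 µM, 2.41 and 2.72 CPM at 5 µM and 0.921 and 0.810 CPM at 7.5 µM. COL9A2 was higher and COL9A3 lower in each day 11 library than in hPSC, and none of these 3 genes passed for dose. COL16A1 lay between 1.4 and 13.1 CPM and COL20A1 between 0.200 and 2.89 CPM over these 10 libraries.

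Both transmembrane collagens with more than 10 CPM were lower at 7.5 µM. COL13A1, found at the neuromuscular junction, had 3.44 and 3.39 CPM in hPSC, 44.4 and 48.5 CPM at 0.7 µM, 29.9 and 40.1 CPM at 3 µM, 21.4 and 37.3 CPM at 5 µM and 7.78 and 14.7 CPM at 7.5 µM. Both 7.5 µM libraries were the lowest of day 11 and above both hPSC libraries. Its log2 fold change with the block was −2.27 ± 0.28 (SE; edgeR, adjusted p = 0.00172). COL23A1 had 14.9 and 19.0 CPM in hPSC, 60.3 and 30.6 CPM at 0.7 µM, 41.3 and 29.5 CPM at 3 µM, 33.3 and 31.6 CPM at 5 µM and 11.3 and 17.3 CPM at 7.5 µM. Both 7.5 µM libraries were again the lowest of day 11, and the 7.5 µM and hPSC ranges overlapped. COL23A1 was at −1.74 ± 0.37 (SE; edgeR with the block, adjusted p = 0.0164), and at −2.51 without 7.5 µM replicate 2. COL25A1, whose product occurs in amyloid plaques, was at 0.289 to 2.68 CPM at day 11, against 10.3 and 8.38 CPM in hPSC.

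COL18A1, the multiplexin that is the source of endostatin, had 110.2 and 90.9 CPM in hPSC, 223 and 66.6 CPM at 0.7 µM, 154 and 87.3 CPM at 3 µM, 148 and 132 CPM at 5 µM and 248 and 103 CPM at 7.5 µM. Replicate 1 was above replicate 2 at each dose. A 1401-base stretch of its annotated exons lies opposite exons of SLC19A1 in GENCODE 29, and strand use in counting is not given in the sources used here. COL7A1, the anchoring fibril collagen of skin, had 12.4 and 5.55 CPM in hPSC, 43.8 and 38.6 CPM at 0.7 µM, 29 and 59.2 CPM at 3 µM, 17.8 and 61.4 CPM at 5 µM and 16.5 and 36.5 CPM at 7.5 µM. Day 11 libraries were all above hPSC for COL7A1. COL26A1 had 45.9 and 43.4 CPM in hPSC, 38.1 and 10.5 CPM at 0.7 µM, 25.7 and 8.10 CPM at 3 µM, 27.4 and 9.84 CPM at 5 µM and 60.9 and 19.3 CPM at 7.5 µM, with replicate 1 above replicate 2 throughout. COL28A1, a collagen of peripheral nerve, had 1.27 and 1.64 CPM in hPSC, 0.536 and 0.916 CPM at 0.7 µM, 0.113 and 0.528 CPM at 3 µM, 0.0963 and 0.438 CPM at 5 µM and 0.980 and 0.717 CPM at 7.5 µM. It was under 2 CPM in all 10 of these libraries, and none of COL18A1, COL7A1, COL26A1 and COL28A1 passed for dose.

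More members passed between the replicates at day 11 than for dose, but the counts are unlike. The replicate test sets 4 libraries against 4, and each dose test sets 2 against 2. Taking both directions together, the members' share was close to that of all genes. Over the 8 day 11 libraries, with dose as a term, 20 of 37 members differed between replicate 1 and replicate 2, where 55.6% of all genes did (26.9% higher and 28.7% lower in replicate 1). In replicate 1, 4 members were higher and 16 lower. Higher were COL26A1 (1.87 ± 0.18), COL18A1 (1.21 ± 0.22), COL2A1 (1.17 ± 0.20) and COL9A2 (0.77 ± 0.24), as log2 fold change ± SE. Among the lower ones were COL12A1 (−3.07 ± 0.26), COL14A1 (−2.62 ± 0.26), COL11A1 (−2.62 ± 0.26), COL1A2 (−2.62 ± 0.18) and COL6A3 (−2.53 ± 0.63). The members' median was −0.62 and that of all genes −0.02 on the log2 scale. The labels do not say what a replicate number stands for; the share of reads in no gene moved with it, and its part in these values was not tested. The COL6A3 value was −1.86 without either 0.7 µM library and −3.23 and −3.24 without replicate 1 or 2 of 7.5 µM. Leaving out a library of a dose in turn gave 16 to 23 calls. The calls of COL4A3, COL4A6, COL6A3, COL7A1, COL9A2 and COL27A1 were lost in 1 or more of these fits, with libraries of 3 or 5 µM left out and, for COL9A2, also those of 0.7 µM.

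**Figure D5:**
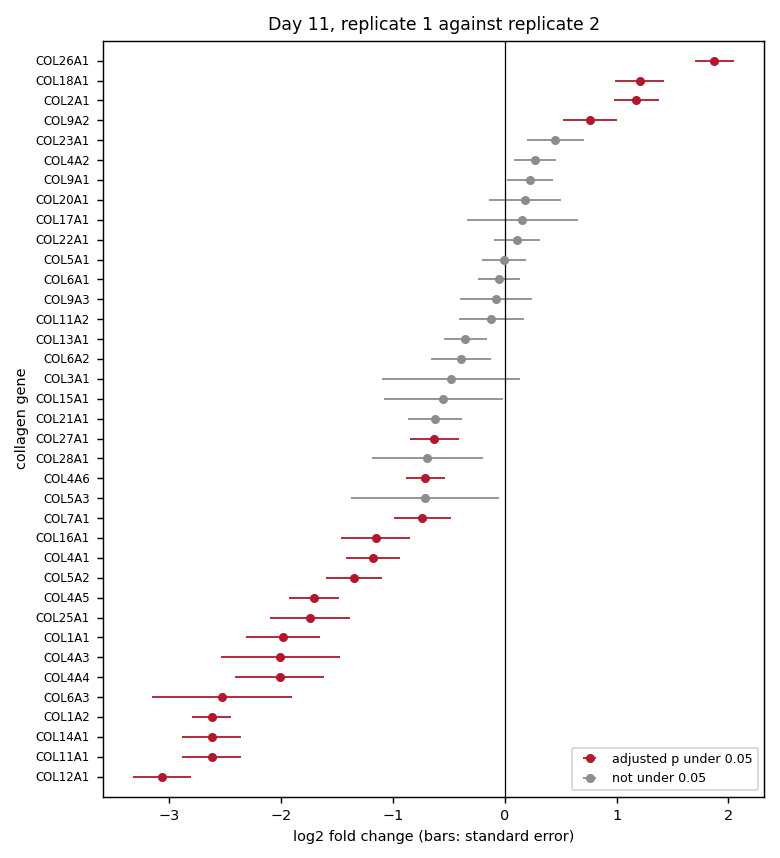
Log2 fold change, replicate 1 over replicate 2 over the 4 day 11 doses (horizontal axis; bars are standard errors), for the 37 tested collagen genes. Red genes passed the adjusted threshold of 0.05; 4 lie right of 0 and 16 left of it.

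At 7.5 µM against hPSC, 8 of 40 members passed (4 higher, 4 lower), where 10.1% of the 19672 genes tested did (4.35% higher, 5.7% lower). With the block the count was 22 (12 higher, 10 lower; background 34.8%, with 16.6% higher and 18.1% lower). The members' median log2 fold change was 0.03 without the block and −0.19 with it, where that of all genes was 0.05 and 0.04. COL2A1 (3.85 ± 0.82, SE), COL22A1 (2.48 ± 0.36), COL4A6 (1.90 ± 0.47) and COL13A1 (1.70 ± 0.38) were higher at 7.5 µM (edgeR, adjusted p = 0.0268, 0.00678, 0.0436 and 0.0298). Without hPSC replicate 1 the COL2A1 value was 4.62. COL24A1 (−4.87 ± 0.82), COL6A2 (−3.55 ± 0.48) and COL9A3 (−3.54 ± 0.46) were lower (edgeR, adjusted p = 0.0106, 0.00539 and 0.00463). COL8A2, a chain of the hexagonal network under the corneal endothelium, was lower with 3 counts at 7.5 µM, against 225 counts in hPSC, an hPSC level higher by 86.0-fold (95% interval for counting error 29 to 420.1). COL8A1 had 0 counts at 7.5 µM, against 186 counts in hPSC, nearly all of them in hPSC replicate 1 (5.61 and 0.200 CPM in the hPSC libraries).

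At 0.7 µM against hPSC, 12 of 40 members passed (8 higher, 4 lower; background 11.4%, with 5.31% higher and 6.12% lower) and 26 with the block (14 higher, 12 lower; background 46.1%, with 21% higher and 25% lower). COL2A1 (4.01), COL13A1 (3.93), COL21A1 (3.13), COL22A1 (2.98), COL6A1 (2.45), COL20A1 (2.22), COL5A1 (2.12) and COL4A2 (1.5) were higher at 0.7 µM, as log2 fold changes. COL24A1 (−4.83), COL8A2 (−4.85), COL9A3 (−3.11) and COL6A2 (−1.99) were lower. Without hPSC replicate 1 the COL2A1 value was 4.77 and the COL20A1 value 3.01. Without 0.7 µM replicate 1 COL2A1 was at 2.99 and COL8A2 at −5.66; without 0.7 µM replicate 2 COL2A1 was at 4.60, COL24A1 at −5.94 and COL8A2 at −4.15. Both day 11 comparisons share the hPSC libraries. Each of the 8 and the 12 calls was lost without 1 or more of the 4 libraries compared, and every hPSC, 7.5 µM and 0.7 µM library ended some of them. Leaving out 1 library gave 0 to 3 calls at 7.5 µM and 0 to 10 at 0.7 µM (16 to 22 and 24 to 27 with the block).

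Genes that build, bind and cut collagen were followed in 6 lists. Of the chain modification and folding list (16 genes: prolyl and lysyl hydroxylases, glycosyltransferases and chaperones), 15 were tested and with the block 2 were higher and 2 lower at 7.5 against 0.7 µM (background 10.5%), with a median log2 fold change of −0.44. COLGALT2, a collagen galactosyltransferase, was at 141 and 162 CPM at 7.5 µM, against 24.6 and 29.4 CPM at 0.7 µM (log2 fold change 2.32 ± 0.25, SE). LEPREL1, a prolyl 3-hydroxylase, was at 83.9 and 56.2 CPM at 7.5 µM, against 13.9 and 17.7 CPM at 0.7 µM (1.97 ± 0.30). P4HA2, a subunit of prolyl 4-hydroxylase, was at 25.2 and 40.9 CPM at 7.5 µM, against 69.3 and 206 CPM at 0.7 µM (−2.12 ± 0.32). The groups did not overlap for any of these 3 genes. They were named for their fold changes in these same libraries, so this adds no support.

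Of the list of secretion, propeptide removal and cross-linking (15 genes, all tested), 2 were higher and 2 lower at 7.5 µM with the block (background 5.64% higher and 4.87% lower), with a median of −0.47. The tolloid-like proteases TLL1 and TLL2 belong to a family with members that cut procollagen propeptides. TLL1 was at 9.62 and 15.6 CPM at 7.5 µM, against 2.58 and 3.02 CPM at 0.7 µM (1.96 ± 0.36). TLL2 was at 10.9 and 3.15 CPM at 7.5 µM, against 0.585 and 0.335 CPM at 0.7 µM (3.52 ± 0.49). ADAMTS14, which removes the other propeptide, was at 0.446 and 0.530 CPM at 7.5 µM, against 20.0 and 3.80 CPM at 0.7 µM (−4.39 ± 0.60). Of 9 tested receptors, 1 was higher and 3 lower against the same background, with a median of −0.58. Integrin α2 (ITGA2) was at 0.446 and 1.65 CPM at 7.5 µM, against 4.38 and 21.1 CPM at 0.7 µM (−3.68 ± 0.42), ITGA11 at 0.327 and 0.249 CPM at 7.5 µM, against 3.36 and 1.83 CPM at 0.7 µM (−3.29 ± 0.54) and ITGA1 at 3.33 and 5.74 CPM at 7.5 µM, against 1.17 and 1.27 CPM at 0.7 µM (1.68 ± 0.45). ITGA1 was the higher one, and ITGA2, ITGA11 and the receptor gene GPR56 were the lower ones. The shared integrin chain ITGB1, which did not pass, was at 192 and 309 CPM at 7.5 µM, against 40.4 and 280.1 CPM at 0.7 µM.

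Of 10 tested genes of collagen breakdown and its inhibitors, 3 were higher and 0 lower at 7.5 µM with the block (background 10.5%), with a median of 0.22. All are matrix metalloproteinases. MMP14, which cuts fibrillar collagen at the cell surface and activates MMP2, was at 67.8 and 108 CPM at 7.5 µM, against 8.14 and 46.3 CPM at 0.7 µM (2.02 ± 0.40). MMP2 was at 976 and 731 CPM at 7.5 µM, against 476 and 327 CPM at 0.7 µM (0.93 ± 0.25) and MMP16 at 48.9 and 105 CPM at 7.5 µM, against 14.3 and 52.5 CPM at 0.7 µM (1.2 ± 0.26). Of 12 tested basement membrane partners, 0 passed in either direction (edgeR; 4 with an unadjusted p under 0.05), with a median of −0.22. At 5 against 0.7 µM 2 of the same 12 were lower with the block, the basement membrane linkers NID2 (−1.91 ± 0.35) and NID1 (−1.27 ± 0.24). The other lists had 3 genes higher and 1 lower at that dose, where 1.13% of all genes passed. Of 9 tested fibril partners, 2 were higher and 1 lower at 7.5 µM with the block, with a median of 0.75. Fibromodulin (FMOD) was at 3.86 and 3.99 CPM at 7.5 µM, against 0.195 and 0.0670 CPM at 0.7 µM (4.94 ± 0.69), biglycan (BGN) at 16.9 and 28.2 CPM at 7.5 µM, against 6.29 and 5.79 CPM at 0.7 µM (1.69 ± 0.30) and lumican (LUM) at 2.46 and 1.53 CPM at 7.5 µM, against 7.55 and 4.20 CPM at 0.7 µM (−1.71 ± 0.38). The median of all genes in this fit was 0.07, and without the block 0 genes of the 6 lists passed (edgeR; 15 with an unadjusted p under 0.05).

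Against hPSC, without the block, 7.5 µM cultures had higher COLGALT2 (3.92), TLL1 (3.21), BMP1 (2.54), LOXL3 (1.5), GPR56 (2.24), MMP2 (3.62), TIMP3 (2.20), LAMA3 (1.99), FMOD (4.29), FBN2 (1.81) and BGN (1.71), as log2 fold changes. LAMA4, a laminin chain, was lower (−4.16). By list, the counts higher and lower were 1 and 0 of 15 in modification, 3 and 0 of 15 in secretion and cross-linking, 1 and 0 of 9 receptors, 2 and 0 of 10 in breakdown, 1 and 1 of 13 basement membrane partners and 3 and 0 of 9 fibril partners, where 10.1% of all genes passed.

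Markers of other cell types that make much collagen were followed in the same libraries. The 8 mesenchyme and fibroblast markers summed to 35.9 to 63.0 CPM at 7.5 µM, against 26.3 to 41.0 CPM at 0.7 µM and 529 to 731 CPM in hPSC, most of the hPSC sum being THY1. Against hPSC, 3 of 6 tested were higher at 7.5 µM without the block (PDGFRA, PRRX1 and TWIST1) and THY1 was lower, with a median log2 fold change of 2.99. PDGFRA was at 7.34 and 15.3 CPM at 7.5 µM, against 1.58 and 0.958 CPM in hPSC, and PRRX1 at 2.41 and 5.46 CPM, against 0.341 and 0.04 CPM in hPSC. For dose with the block, 1 of the 6 tested was higher and 1 lower at 7.5 µM. Their median log2 fold change was 0.03, against 0.07 for all genes. PDGFRB, the higher one, was at 13.6 and 33.2 CPM at 7.5 µM, against 6.53 and 6.23 CPM at 0.7 µM. LUM, the lower one, was at 2.46 and 1.53 CPM at 7.5 µM, against 7.55 and 4.20 CPM at 0.7 µM. DCN was at or under 0.193 CPM and TWIST2 at or under 0.337 CPM at day 11. The 5 vascular markers summed to 28.1 to 34.7 CPM at 7.5 µM, against 16.1 to 46.2 CPM at 0.7 µM, with CDH5 at or under 0.125 CPM. The 6 cartilage and notochord markers summed to 42.8 to 70.9 CPM at 7.5 µM, against 107 to 295 CPM at 0.7 µM, which held SHH, also made by floor plate, at 22.2 and 32.1 CPM at 7.5 µM, against 279 and 52.7 CPM at 0.7 µM. The cartilage regulator SOX9 was at 7.99 and 15.9 CPM at 7.5 µM, against 15.0 and 53.6 CPM at 0.7 µM, and the cartilage gene ACAN was under 1 CPM throughout day 11. Among these 6, brachyury (T) was at 11.5 and 21.6 CPM at 7.5 µM, against 0.0490 and 0 CPM at 0.7 µM. The 5 neural crest markers summed to 24.1 to 34.5 CPM at 7.5 µM, against 68.4 to 88.7 CPM at 0.7 µM, with SOX10 under 1 CPM, and the 4 meningeal and choroid plexus markers to 3.74 to 6.06 CPM at 7.5 µM, against 4.11 to 29.9 CPM at 0.7 µM. The 7 progenitor and floor plate markers summed to 1883 to 2137 CPM at 7.5 µM, against 1466 to 2995 CPM at 0.7 µM, the 6 neuronal ones to 359 to 562 CPM, against 249 to 439 CPM at 0.7 µM, and the 5 pluripotency ones, mostly LIN28A, to 1422 to 1523 CPM, against 1165 to 1886 CPM at 0.7 µM. The part of these cell types in the collagen values was not tested, and in bulk RNA fewer cells of a type cannot be told apart from less RNA per cell.

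The day 16 and day 30 tables were compared only with each other. They hold reads assigned in a way that differs from the other tables: ACTB was at 78.1 to 486 CPM there, against 985 to 3701 CPM in hPSC and day 11 libraries, and MT-ND6, the mitochondrial gene read from the opposite strand, was at 2957 to 6561 CPM, against 52.4 to 292 CPM. Strand use is not given in the sources used here, so a collagen value in these tables may count reads from the other strand of the gene. Day 16 replicate 1, with the highest ACTB, stood apart from the other late libraries. Of 28 members tested, 10 passed at day 30 against day 16 (4 higher, 6 lower), where 11% of the 15435 genes tested did (6.82% higher, 4.2% lower). With the replicate number as a block, 7 passed (background 6.91%; 4.68% higher, 2.24% lower).

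COL28A1 showed the largest late difference, with 107 and 75.0 CPM at day 30, against 1.42 and 0.185 CPM at day 16. Its log2 fold change was 6.99 ± 0.76 (SE) at day 30 against day 16 (edgeR, adjusted p = 1.39e-07). GENCODE 29 lists 0 genes on the strand opposite to it. That does not show which strand these reads come from, and so whether they are COL28A1 transcripts cannot be told here. The call stood in each fit without 1 library, with 8.70 without day 16 replicate 1. The 250 bases before the COL28A1 start are shown because this late difference was the largest (chr7:7535874-7536123, minus strand, RefSeq, GRCh38.p14), with CCAAT in capitals.
COL28A1: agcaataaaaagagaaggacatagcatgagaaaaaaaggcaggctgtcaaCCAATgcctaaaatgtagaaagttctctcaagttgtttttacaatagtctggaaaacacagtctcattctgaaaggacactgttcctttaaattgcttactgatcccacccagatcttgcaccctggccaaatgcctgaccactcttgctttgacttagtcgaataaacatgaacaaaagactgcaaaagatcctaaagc
COL20A1 (2.68) and COL6A2 (2.14) were also higher at day 30 on the log2 scale, and COL5A3 had 48 counts at day 30, against 3 counts at day 16, a ratio of 16.9 after scaling (95% interval for counting error 5.44 to 84.8). Lower at day 30 were COL5A2 (−4.31), COL2A1 (−4.07), COL9A1 (−3.33), COL3A1 (−3.09), COL4A5 (−3.05) and COL4A2 (−2.38). COL9A1 was at −2.34 without day 30 replicate 1 and at −7.57 without day 30 replicate 2. Without day 16 replicate 1 the values were −1.81 for COL3A1, −3.25 for COL5A2, −3.43 for COL2A1, −2.31 for COL4A5 and 1.49 for COL6A2, and without day 16 replicate 2 COL6A2 was at 3.40 and COL3A1 at −3.68. Without day 30 replicate 2 COL3A1 was at −4.17 and COL5A2 at −4.92. In GENCODE 29 COL4A2 lies opposite genes with up to 259.9 CPM in these tables, COL9A1 opposite one with up to 87.9 CPM and COL4A5 opposite one with up to 8.51 CPM, while COL2A1, COL6A2 and COL20A1 lie opposite 0 genes. COL2A1, for one, was at 2.12 and 3.48 CPM at day 30, against 83.8 and 28.3 CPM at day 16. Leaving out 1 library gave 1 to 18 calls: each of these 9 calls was lost without day 30 replicate 1, and all but those of COL2A1 and COL3A1 were also lost without day 30 replicate 2.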

How the data were processed

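RNA of 14 libraries was analysed from the read counts per gene that the authors deposited, whole numbers with no normalization. Per the submitters' processing notes, the genome was hg19 and the tools included DESeq2 1.12.4, HTSeq 0.5.3, featureCounts 1.4.2 and STAR 2.4.2a; strand use is not given in the sources used here. Entries that name no gene held 37.41% to 44.33% of what the early tables count and entered neither library sizes nor tests. Levels are in CPM, relative to gene counts, and per kilobase where genes are compared, with exon lengths and overlaps from GENCODE 29 joined by gene identifier.

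The tests ran in edgeR 4.0.16 under R 4.3.3 with limma 3.58.1, using TMM scaling, filterByExpr and robust quasi-likelihood fits, with Benjamini-Hochberg adjustment over all genes tested and a threshold of 0.05. Dose comparisons and the slope used the 8 day 11 libraries, comparisons with hPSC added its 2 libraries, and day 30 against day 16 used its 4. The replicate number was added as a block in a second fit (within day 11 only, against hPSC). At day 11 same-numbered deviations correlated at 0.66 to 0.87 in the 6 pairs of groups, so that the numbers pair the libraries there; with hPSC the correlation was −0.19 to −0.13. The pairing comes from the data, not from the labels. The p-values take in no spread beyond that of these libraries, which may be technical.

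Alternatives were RLE scaling, no filter on low counts, DESeq2 1.42.0, library totals only and each library left out. The fits were also run on simulated counts that had the same replicate difference at every dose. That setting is simpler than these libraries, so the run adds no support to the calls. With 1 to 3 counts in a group, a ratio of counts over the group replaces the fitted fold change. It is scaled by total gene counts without TMM, and its 95% interval covers counting error only. A member has its values in each library printed where a group mean reached 10 CPM or where it passed for dose with at least 1 CPM, and COL28A1 in any case; of each partner list up to 3 genes of largest fold change per comparison are named. The members, lists and rules were chosen with earlier results of these data known. Promoter sequences are RefSeq's (GRCh38.p14).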

Additional observations from a re-analysis of the deposited data

How the results depend on the processing

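The count of collagen genes called for dose depended on the replicate block, which suits libraries that pair by number. At 7.5 against 0.7 µM it was 0 without the block, 5 with DESeq2, 12 with the block, and with the block 15 by DESeq2, 13 under RLE scaling and 10 with library totals only. At 5 against 0.7 µM it was 0, 1 with DESeq2, 1 with the block, and with the block 4 by DESeq2 and 2 under RLE scaling; at 3 against 0.7 µM it was 0 except for 1 with the block and DESeq2. For the slope it was 0, 1 under RLE scaling, 1 with no filter, 3 with DESeq2, 2 with the block, and with the block 5 by DESeq2, 2 under RLE scaling and 2 with library totals only. Against hPSC, 7.5 µM had 8 calls, 15 with DESeq2 and 22 with the block, by any tool or scaling; 0.7 µM had 12, and 26 with the block (26 by DESeq2, 26 under RLE scaling, 27 with library totals only). Day 30 against day 16 had 10 calls, 5 with library totals only, 7 with the replicate block and 10 with crossed numbers as the block, a pairing tried since same-numbered late libraries deviated in opposite directions.

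Leaving out 1 library at a time gave, without and with the block, 0 to 0 and 4 to 18 calls at 7.5 against 0.7 µM, 0 to 0 and 1 to 3 at 5 µM, 0 to 0 and 0 to 0 at 3 µM, 0 to 0 and 0 to 3 for the slope, 0 to 3 and 16 to 22 (16, 17, 22 and 22) at 7.5 µM against hPSC, and 0 to 10 and 24 to 27 (24, 25, 25 and 27) at 0.7 µM against hPSC. It gave 16 to 23 between replicates and 1 to 18 for day 30 against day 16. The remaining library of a group is then assumed to vary like the other groups. Of the values of single genes, 1 reversed: COL12A1 at 7.5 µM against hPSC was −0.091 without 7.5 µM replicate 2 and 2.22 without 7.5 µM replicate 1. Among the other settings 374 values kept direction and side of the threshold, 194 newly passed it and 12 no longer did. With library totals only, the median of all genes shifted by 0.17 (7.5 against 0.7 µM, block), −0.17 (0.7 µM against hPSC, block), −0.21 (replicates) and −0.17 (day 30 against day 16) on the log2 scale. The cause of these differences was not tested. The blocked fits with other tools or scalings and the crossed pairing were added after the data were seen. Members under 1 CPM in every group had few counts, and small differences in them may go undetected at this depth. COL6A6 was still called lower at 7.5 µM than in hPSC by the blocked fit. It had 16 and 6 counts in hPSC and 0 and 6 at 7.5 µM, and its call did not stand in every leave-out.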
